A study of Mus musculus with 2 samples.

Results

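The E proteins, the Id proteins that inhibit them and the related factor Ascl2 were followed as 7 genes, namely Tcf3, Tcf4, Tcf12, Id1, Id2, Id3 and Ascl2. Their probes were found by gene name in the array design, and all gene probes of these names were kept. This gave 10 probes of 39348, and 7 genes of 30069. RNA came from 1 sample of sorted regulatory T (Treg) cells labelled Nr4a-deficient, which the labels also call Nr4a-TKO, and from 1 sample of sorted wild-type Treg cells. The mice of both samples were 5 weeks old. Each sample was hybridised to 1 single-colour array, and the series asks how the transcripts of Treg cells differ without the Nr4a nuclear receptors. The alleles, the strain, any Cre driver, the tissue, the sort markers and the number of animals behind each sample are not given in the sources used here. With 1 array per genotype there was no replicate check and no test between genotypes, and every difference below describes these 2 libraries.

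E proteins are transcription factors with a basic helix-loop-helix (bHLH) domain. They bind DNA as dimers at short motifs called E-boxes, and in lymphocytes they drive B and T cell development and restrain the activation of mature T cells. Id proteins have the helix-loop-helix but no basic region, so a dimer of an Id protein and an E protein cannot bind DNA, and the balance of Id2 and Id3 against the E proteins is known to limit the follicular differentiation of Treg cells in mice. Ascl2 is a tissue-restricted bHLH factor that pairs with E proteins and promotes follicular helper T cells. The genes Tcf3 and Tcf4 named here encode E proteins and are not the Wnt pathway factors Tcf7l1 and Tcf7l2, which share those names in older usage.

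The promoters of Id2, Id3 and Ascl2 are shown because these are the inhibitors and the partner whose values differed between the libraries in different directions, and because the E-box is the motif that E proteins bind. Each window covers 250 bases before and 50 bases after the transcription start, from RefSeq with build GRCm38.p6, written 5′ to 3′ on the strand of the gene. Capitals mark matches to the E-box motif CANNTG, a palindrome that reads alike on both strands. The windows are chr12:25096043-25096342 on the minus strand for Id2, chr4:136143572-136143871 on the plus strand for Id3 and chr7:142969215-142969514 on the minus strand for Ascl2.
Id2: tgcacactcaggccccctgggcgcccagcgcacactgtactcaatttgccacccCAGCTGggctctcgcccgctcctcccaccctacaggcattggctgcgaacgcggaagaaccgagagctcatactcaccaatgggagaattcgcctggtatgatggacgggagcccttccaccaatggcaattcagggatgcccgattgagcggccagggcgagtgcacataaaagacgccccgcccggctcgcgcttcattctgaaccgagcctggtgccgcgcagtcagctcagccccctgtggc
Id3: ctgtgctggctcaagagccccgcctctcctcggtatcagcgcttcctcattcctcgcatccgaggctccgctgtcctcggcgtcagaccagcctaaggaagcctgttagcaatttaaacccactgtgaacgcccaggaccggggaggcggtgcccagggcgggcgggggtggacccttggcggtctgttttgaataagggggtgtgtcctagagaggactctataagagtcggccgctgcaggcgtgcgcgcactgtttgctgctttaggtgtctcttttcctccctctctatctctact
Ascl2: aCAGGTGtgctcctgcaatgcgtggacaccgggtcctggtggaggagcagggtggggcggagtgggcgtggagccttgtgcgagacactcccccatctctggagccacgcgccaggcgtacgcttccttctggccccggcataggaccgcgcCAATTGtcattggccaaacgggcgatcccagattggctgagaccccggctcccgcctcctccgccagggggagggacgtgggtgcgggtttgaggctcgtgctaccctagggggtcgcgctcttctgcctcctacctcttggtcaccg
The window of Ascl2 held 2 E-boxes, that of Id2 held 1 and that of Id3 held 0. RefSeq windows were found for 5 of the 7 genes, all but Id1 and Tcf4. Tcf3 had 1 E-box, and the 3 windows of Tcf12 had 1, 2 and 1. Of 32851 windows of this length in the table, 72.3% held at least 1 E-box and 39.6% held at least 2, so these counts were common ones. The motif AAAGGTCA, to which Nr4a receptors bind as monomers, was searched on both strands. Its final CA can also begin an E-box, and such overlaps were kept. It was in none of the windows of Id2, Id3, Ascl2 and Tcf3 and in 1 of the 3 windows of Tcf12, against 1.51% of all windows. A match is only a match of letters, and a window without one says nothing of the factor.

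Intensity here is the scanner's background-subtracted signal of a probe on a linear scale. Before any difference was taken, its log2 was taken relative to the 75th percentile of the array's gene probes, an intensity of 1762 for the library labelled Nr4a-deficient and 2047 for wild-type. Differences are taken as Nr4a-deficient by label minus wild-type. The array fixes no common zero between probes, so levels of different probes are not compared. The 8 spike-in RNAs seen on both arrays had a median difference of 0.39 after this scaling, so every log2 difference is 0.39 lower on the scale of the spike-ins, and differences between 0 and 0.39 change sign there. Of all gene probes, 58.7% were above background in the library labelled Nr4a-deficient, against 55.6% in wild-type Treg cells, and both arrays came from 1 slide and 1 scan. Probes for 2 of the 3 targeted genes went against the label. Nr4a1 had an intensity of 80407 in the library labelled Nr4a-deficient, against 51441 in wild-type Treg cells (0.86), and the brighter Nr4a2 probe had 3134 in the library labelled Nr4a-deficient, against 1850 in wild-type Treg cells (0.98). Nr4a3 was not above background on either array. Over 10 spots per array, its probe had 22.3 in the library labelled Nr4a-deficient, against 71.6 in wild-type Treg cells (-1.47). The deleted parts were not given, a probe outside a deleted part checks nothing, and each direction below rests on the label. Of the cell identity genes, Cd3e (0.18, or -0.21 on the spike-in scale) and Cd4 (0.12, or -0.28) were bright on both arrays. Foxp3, the lineage factor of Treg cells, had only 74.5 in the library labelled Nr4a-deficient, against 85.4 in wild-type Treg cells, and the lowest signal called above background was 51.1 in the library labelled Nr4a-deficient, against 73.8 in wild-type Treg cells.

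All 10 probes of the 7 genes were above background on both arrays, each from 1 spot per array, so none of the genes entered through 1 array alone. Of the 7 genes, 2 were at least 2-fold higher in the Treg library labelled Nr4a-deficient, Tcf4 and Id2, and 0 were at least 2-fold lower. Among 18540 genes above background on at least 1 array, 4.7% passed 2-fold upward and 4.94% downward, together 9.63%, counting genes seen on 1 array by their bound. Among the 16298 genes above background on both arrays, as all 7 were, 2.64% passed 2-fold upward and 3.06% downward, together 5.71%. The median difference of the 7 genes was 0.046, against 0.0033 for all genes. On the spike-in scale, it was -0.35, against -0.39 for all genes. Of the 7 genes, 4 lay above 0 and 3 below. Each difference is also given beside the spot SD, the SD that repeated spots of equally bright probes gave to a difference. It covers noise between spots and leaves out animals, sorts and RNA preparations.

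The E proteins differed from each other. Tcf4, an E protein required for plasmacytoid dendritic cells and also expressed in B cells, was 7.57-fold higher in the Treg library labelled Nr4a-deficient. Its brighter probe had an intensity of 4934 in that library, against 757 in wild-type Treg cells, a log2 difference of 2.92 with a spot SD of 0.056. Its dimmer probe had 308 in the library labelled Nr4a-deficient, against 93.1 in wild-type Treg cells, a difference of 1.94 (3.85-fold) with a spot SD of 0.23. Both probes were thus higher in the same library, the dimmer one by less, and the wild-type signal of the dimmer probe lay close to the lowest signal called above background there. On the spike-in scale, the differences were 2.53 and 1.55. The brighter probe placed Tcf4 at rank 40 of the 16298 genes above background on both arrays, counted from the highest. The medians of the markers of plasmacytoid dendritic cells (1.49) and of B cells (0.83) also lay above 0, with 1 marker of each below 0. The part of such cells in the Tcf4 values was not tested. On mm9, the Tcf4 probes lie on the plus strand at chr18:69842843-69842902 and chr18:69847562-69847621.

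A clone sequence named 4732423E21Rik has its probe at chr18:69730353-69730412 on mm9, 112 kb before the nearer Tcf4 probe, and it was picked out after its value was known. It had an intensity of 3319 in the library labelled Nr4a-deficient, against 592 in wild-type Treg cells, 6.52-fold higher (2.70). It was not matched in the RefSeq table, and whether it belongs to the Tcf4 gene was not tested.

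Tcf3, the main E protein of early B and T cell development, did not show this difference. Its brighter probe had 3408 in the library labelled Nr4a-deficient, against 4132 in wild-type Treg cells, which after scaling gave -0.062 with a spot SD of 0.044. Its dimmer probe had 273 in the library labelled Nr4a-deficient, against 357 in wild-type Treg cells, a difference of -0.17 with a spot SD of 0.17. Both differences were of the size of the spot noise, although on the spike-in scale they were -0.46 and -0.57. The array design names different transcript variants for these probes, at chr10:79872639-79872698 and chr10:79875963-79876022 on the minus strand of mm9.

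Tcf12, the E protein also called HEB, which acts with Tcf3 in thymocytes, had 2857 at its brighter probe in the library labelled Nr4a-deficient, against 3214 in wild-type Treg cells. This gave 0.046 with a spot SD of 0.047, and -0.35 on the spike-in scale. Its dimmer probe had 1945 in the library labelled Nr4a-deficient, against 1673 in wild-type Treg cells, a difference of 0.43 (1.35-fold) with a spot SD of 0.061, or 0.039 on the spike-in scale. The probes thus disagreed by more than the spot noise, and the sign of the gene rested on the probe and the scale. The brighter probe lies at chr9:71692310-71692369 on the minus strand of mm9, and the design gives the dimmer one only 28 bases, at chr9:71692059-71692086.

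Differences between genes do not depend on the scale factor of the arrays. Here and below they are taken from the brightest probe of each gene. The dimmer probes of Tcf4 (1.94) and Tcf12 (0.43) would change them by more than the spot SD. That of Tcf3 (-0.17) would change them less, by no more than its own spot SD of 0.17. Relative to Tcf3, Tcf4 was 7.91-fold higher in the Treg library labelled Nr4a-deficient (2.98, spot SD 0.072), and relative to Tcf12 it was 7.34-fold higher (2.88). Tcf3 and Tcf12 differed from each other by -0.11 with a spot SD of 0.065. By the brightest probes of the E proteins, the libraries therefore differed in the ratio of Tcf4 to its relatives and much less in that of Tcf3 to Tcf12.

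The Id genes went in both directions. Id2, an inhibitor required for natural killer and other innate lymphoid cells and active in effector T cells, had an intensity of 14949 in the library labelled Nr4a-deficient, against 8357 in wild-type Treg cells. It was 2.08-fold higher (1.06) with a spot SD of 0.041, just past the 2-fold threshold. It was 0.96 with the array median as the scale, 0.84 without scaling and 0.66 with the spike-ins, all under 2-fold. It stayed past 2-fold in 10 of 13 settings, but several of these could not move it. Id2 has 1 probe, above background on both arrays, so the filter, bound, outlier-spot and probe-mean settings returned its main value. Its difference ranked 396 of 16298 from the highest, and 5.22% of these genes had a difference at least as large in either direction. The medians of the markers of natural killer and CD8 T cells (0.51, or 0.12 on the spike-in scale) and of conventional dendritic cells (2.49) lay above 0 as well. These types also express Id2, and 2 of 9 and 1 of 7 detected markers lay below 0. The probe lies at chr12:25778904-25778963 on the minus strand of mm9.

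Id3, the inhibitor that T cell receptor and TGF-beta signals induce in T cells, had 6335 in the library labelled Nr4a-deficient, against 9207 in wild-type Treg cells. It was 1.25-fold lower (-0.32) with a spot SD of 0.040, and -0.72 on the spike-in scale, so it lay below 0 in each of 13 settings without reaching 2-fold in any. Of all genes above background on both arrays, 27.0% had a difference of at least this size. Its probe coordinates on mm9, chr4:135700075-135700249 on the plus strand, span 175 bases, against 60 bases for most of the other probes. Id1, an inhibitor best known from endothelial and progenitor cells, was dim, with 220 in the library labelled Nr4a-deficient, against 297 in wild-type Treg cells. Its difference of -0.22 had a spot SD of 0.18 and was -0.61 on the spike-in scale, and its probe lies at chr2:152563083-152563142 on the plus strand of mm9. Of the genes above background on both arrays, 41.7% had a difference of at least that size.

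Relative to Id3, Id2 was 2.60-fold higher in the Treg library labelled Nr4a-deficient (1.38, spot SD 0.058), whatever the scale factor. Relative to Id1 it was 2.42-fold higher (1.27, spot SD 0.19). Id1 and Id3 differed by 0.10 with a spot SD of 0.19, less than the spot noise. The ratio of Id2 to the E protein Tcf3 was 2.17-fold higher (1.12), while that of Id3 to Tcf3 differed by -0.26. Relative to Tcf12, the differences were 1.01 for Id2 and -0.37 for Id3. Relative to Tcf4 both were below 0, at -1.87 for Id2 and -3.24 for Id3, so the direction of Id2 against an E protein depended on which E protein it was set against.

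Ascl2 had an intensity of 783 in the library labelled Nr4a-deficient, against 484 in wild-type Treg cells. It was 1.88-fold higher (0.91) with a spot SD of 0.10, or 0.52 on the spike-in scale, just under the 2-fold threshold that Id2 passed. It did not reach 2-fold in any of 13 settings, and it ranked 489 of 16298 from the highest. Ascl2 and Id2 differed from each other by -0.15 with a spot SD of 0.11. Relative to Id3, Ascl2 was 2.35-fold higher (1.23). Its probe lies at chr7:150152734-150152793 on the minus strand of mm9.

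**Figure D1:**
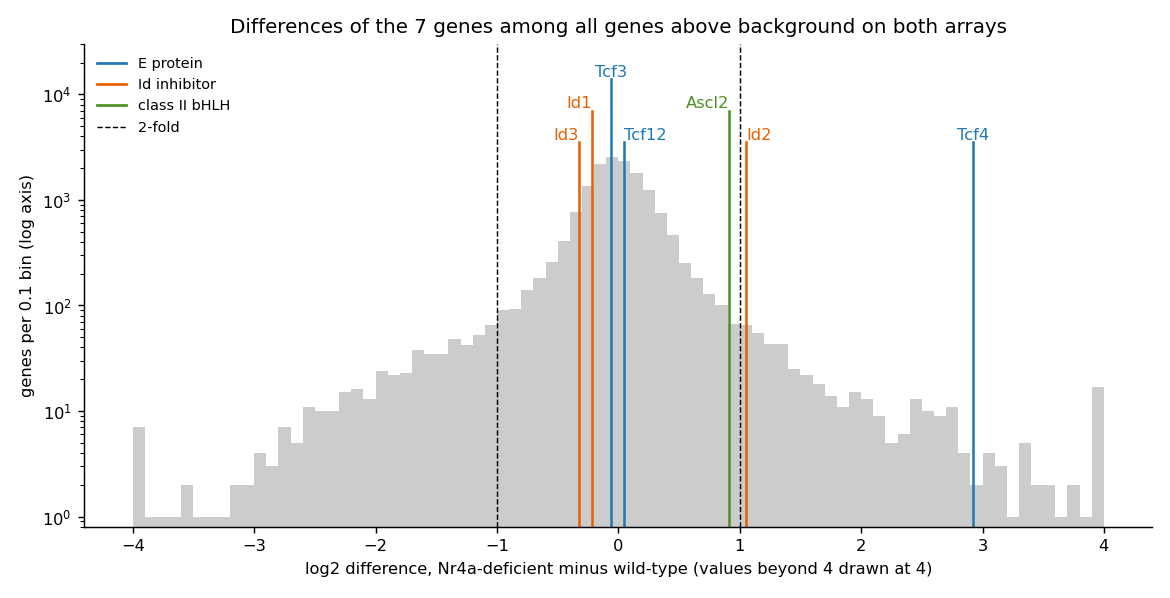
Histogram of log2 differences, labelled Nr4a-deficient minus wild-type, over the 16298 genes above background on both arrays (log count axis), with a line at each of the 7 genes and dashed lines at 2-fold. Tcf4 (2.92) lies in the upper tail, Id2 (1.06) and Ascl2 (0.91) stand on either side of 2-fold, and Tcf3, Tcf12, Id1 and Id3 lie in the bulk, Tcf12 with a sign that turns on the spike-in scale.

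Across 13 settings of scale, background correction, filter and probe rule, Tcf4 lay between 2.43 and 2.93 and past 2-fold in all 13. Id2 ranged between 0.66 and 1.10, Ascl2 between 0.52 and 0.91, Id1 between -0.61 and -0.13, Id3 between -0.72 and -0.28 and Tcf3 between -0.46 and -0.039. These 6 genes kept their sign in each of the 13 settings. The settings are not 13 separate checks, here or in the counts above. All 10 probes were above background on both arrays, so filters on background and the use of bounds could not move any of the genes. Keeping outlier spots or using the authors' deposited table also left the values unchanged, and averaging probes moved only the genes with 2 probes. Tcf12 ranged between -0.35 and 0.24, above 0 in 10 of 13, and gave no settled sign.

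**Figure D2:**
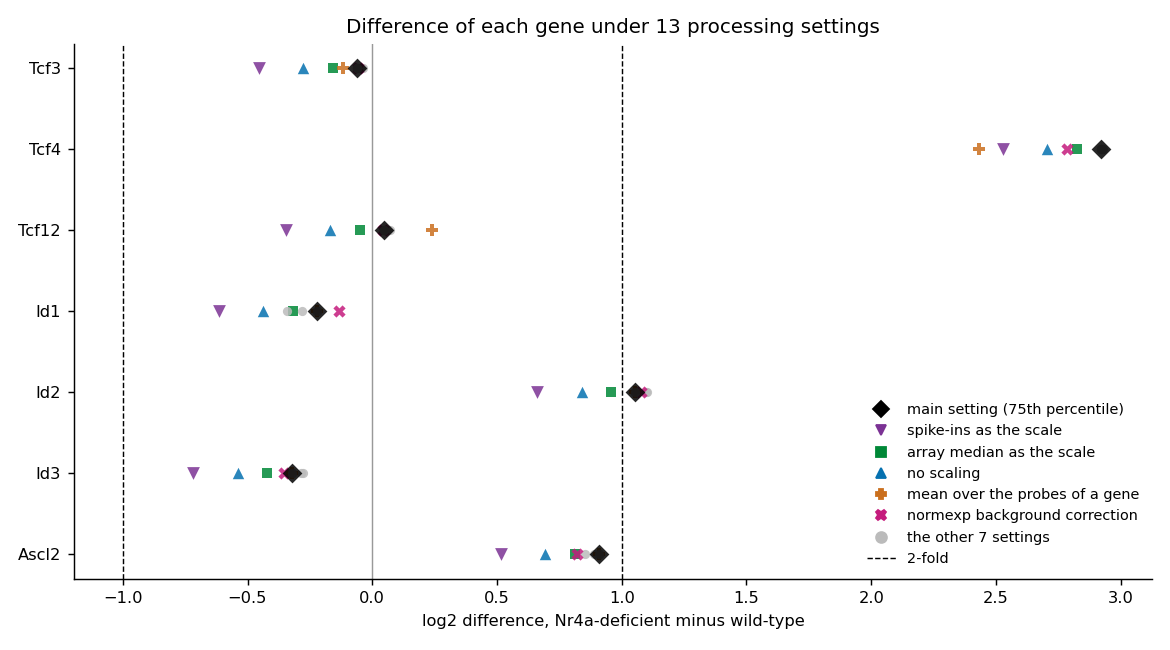
Log2 difference of each of the 7 genes, labelled Nr4a-deficient minus wild-type, with a point for each setting of the processing and dashed lines at 2-fold. Tcf4 stays above 2-fold throughout, Id2 crosses the line, Tcf12 crosses 0, and the spike-in scale gives the lowest points of Id2 (0.66) and Ascl2 (0.52).

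Most of the other bHLH and helix-loop-helix genes were not detected. Of 14 genes, 5 were above background on at least 1 array, and of these 1 was at least 2-fold higher and 1 lower by as much, both by bounds, beside 9.63% of all detected genes past 2-fold either way, with a median of 0.15 (-0.24 on the spike-in scale). Bhlha15, a factor of secretory cells such as plasma cells, had 155 in the library labelled Nr4a-deficient, against a signal not well above background (40.7) in wild-type Treg cells, which made it at least 2.44-fold higher. That call was lost on the spike-in scale (0.89) and with normexp background correction (0.66). Tal1, a bHLH partner of E proteins in blood precursors, was at least 2.23-fold lower, with a signal not well above background (49.8) in the library labelled Nr4a-deficient, against 132 in wild-type Treg cells, and lay under 2-fold with normexp (-0.32). Lyl1, a close relative of Tal1, lay at 0.82, and Hey1 (0.15) and Bhlhe40 (0.043) turned negative on the spike-in scale. The fourth inhibitor of the family, Id4, was not above background on either array, nor were Tal2, Msc, Twist1, Twist2, Myod1, Hes1 and Bhlhe41.

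Of 9 genes for co-regulators and turnover of E and Id proteins, 8 were detected. Of these, 1 was at least 2-fold higher and 0 were lower by as much, beside 9.63% of all detected genes past 2-fold either way. On the spike-in scale, 1 was higher and 1 lower, the latter Skp2 (-1.14). The median was 0.070 (-0.32 on the spike-in scale). Cbfa2t3, a corepressor of the ETO family that binds E proteins, was 8.47-fold higher (3.08), with an intensity of 1830 in the library labelled Nr4a-deficient, against 251 in wild-type Treg cells. A dimmer Cbfa2t3 probe had 61.2 in the library labelled Nr4a-deficient, against 65.2 in wild-type Treg cells (0.13), and passed background in the first of these alone. The value of Cbfa2t3 thus rested on its brighter probe, and the mean over its probes gave 1.60. Its relative Cbfa2t2 lay at -0.031, and Runx1t1 was not above background. The acetyltransferase genes Ep300 (0.17, or -0.22 on the spike-in scale), Crebbp (0.28, or -0.12) and Kat2b (0.48, or 0.089) lay within 2-fold. Usp1, which removes ubiquitin from Id proteins, lay at -0.12, and the ubiquitin ligase subunits Fzr1 and Skp2 lay at -0.14 and -0.75.

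Signals that act on Id genes gave 0 of 14 detected genes at least 2-fold higher and 1 lower by as much. Of all detected genes, 9.63% passed 2-fold either way. The list had a median of 0.049 (-0.34 on the spike-in scale). Acvrl1, a type I receptor for BMP ligands that is best known from endothelium, was 3.13-fold lower (-1.65), with 448 in the library labelled Nr4a-deficient, against 1629 in wild-type Treg cells. The other 13 lay within 2-fold, between -0.49 for Smad7, a feedback inhibitor of TGF-beta signals, and 0.61 for Egr1, an early gene of receptor signals that can induce Id3, and Egr3 and Smad6 were not above background on either array.

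Of 17 detected genes that E proteins regulate in developing or mature lymphocytes, 4 were at least 2-fold higher and 1 lower by as much. Of all detected genes, 9.63% passed 2-fold either way. On the spike-in scale, 2 of the list were at least 2-fold higher and 5 lower. The median was 0.086 (-0.31 on the spike-in scale). Notch3, a receptor of immature T cells, was at least 4.09-fold higher, with 260 in the library labelled Nr4a-deficient, against a signal not well above background (21.5) in wild-type Treg cells. Cdkn1a, which blocks cyclin-dependent kinases, was 3.31-fold higher by its brightest probe (525 in the library labelled Nr4a-deficient, against 184 in wild-type Treg cells), but the mean over its probes gave -1.02. Cxcr5, the receptor that brings cells to B cell follicles, had 7161 in the library labelled Nr4a-deficient, against 3450 in wild-type Treg cells, 2.41-fold higher (1.27), and lay under 2-fold on the spike-in scale (0.88). Ebf1, a B lineage factor, had 235 in the library labelled Nr4a-deficient, against 121 in wild-type Treg cells, and was 2.25-fold higher (1.17), or 0.78 on the spike-in scale and under 2-fold also without scaling (0.96) and with normexp (0.80). Rag1, which recombines antigen receptor genes, was at least 14.0-fold lower, with a signal not well above background (12.8) in the library labelled Nr4a-deficient, against 830 in wild-type Treg cells. The precursor genes Rag2, Ptcra and Igll1 were not above background on either array.

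Genes tied to Ascl2 in follicular helper T cells numbered 12, all detected, and 2 were at least 2-fold higher and 2 lower by as much. Of all detected genes, 9.63% passed 2-fold either way. On the spike-in scale, 1 of the list was at least 2-fold higher and 3 lower. The median was 0.086 (-0.31 on the spike-in scale). The higher genes were Il21, the follicular helper cytokine, at least 20.5-fold by the measured values, with 1318 in the library labelled Nr4a-deficient, against a signal not well above background (74.6) in wild-type Treg cells, and Cxcr5, described above. The lower genes were Il2ra, a chain of the IL-2 receptor, 2.42-fold with 16618 in the library labelled Nr4a-deficient, against 46649 in wild-type Treg cells, and Il2 itself, 2.01-fold with 92.9 in the library labelled Nr4a-deficient, against 217 in wild-type Treg cells. Il2 lay at the threshold and fell short of it with normexp (-0.55). Tbx21 lay at 0.92, and Bcl6, the lineage factor of follicular helper T cells, at 0.30 (-0.092 on the spike-in scale). Cxcr4 (-0.29) and Pdcd1 (-0.19) lay below 0, while Ccr7 (0.23), Ifng (0.099) and Selplg (0.074) lay above it and turned negative on the spike-in scale. The lists thus held genes that were higher and genes that were lower beside the difference in Tcf4, and none of their medians exceeded 0.15.

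Markers of cells other than Treg cells moved in the same libraries. Tcf4, Id2, Cxcr5 and Ebf1 are also expressed in such cells, and in a bulk sample fewer cells of a type cannot be told apart from less RNA per cell. The counts of each marker list below stand beside 4.7% of all detected genes at least 2-fold higher and 4.94% lower by as much. Of 12 plasmacytoid dendritic cell markers, all detected, 8 were at least 2-fold higher and 0 lower (median 1.49), or 7 on the spike-in scale without Ccr9. Only Tlr7 lay below 0, at -0.49 and -0.47 for its 2 probes above background, and Pacsin1 lay at 0.17 (-0.22 on the spike-in scale). Their summed level, as a multiple of the array's 75th percentile, came to 140 in the library labelled Nr4a-deficient, against 106 in wild-type Treg cells. Such a sum is set only against that of the same probes on the other array and follows its brightest probes. The brightest Siglech probe alone gave 77.7 in the library labelled Nr4a-deficient, against 72.2 in wild-type Treg cells, and the other 11 markers gave 62.6 in the library labelled Nr4a-deficient, against 33.6 in wild-type Treg cells. The largest differences were in Cox6a2 (114-fold), Upb1 (49.9-fold) and Spib (5.67-fold), the last a factor that acts with Tcf4 in plasmacytoid dendritic cells. The wild-type signals of Cox6a2 (83.8) and Upb1 (111) were dim, where the lowest signal called above background was 73.8. Siglech, a defining receptor of these cells, gave 0.10 at its brightest probe (-0.29 on the spike-in scale) and 6.63 at another probe above background on both arrays, with 12556 in the library labelled Nr4a-deficient, against 147 in wild-type Treg cells. Of 8 B cell markers detected, 2 were at least 2-fold higher (median 0.83), with a summed level of 14.5 in the library labelled Nr4a-deficient, against 7.996 in wild-type Treg cells, and Fcrla 7.67-fold higher, while Pax5 and Blk were not above background on either array.

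Id2 and the other genes also stood beside further lists. Of 7 conventional dendritic cell markers detected, 4 were at least 2-fold higher (median 2.49), with a summed level of 6.03 in the library labelled Nr4a-deficient, against 1.02 in wild-type Treg cells. Clec10a was at least 49.2-fold, Cd209a at least 32.8-fold and Itgax 6.27-fold higher, and Xcr1 was not above background. Of 9 natural killer and CD8 T cell markers, 3 were at least 2-fold higher (median 0.51), with a summed level of 16.5 in the library labelled Nr4a-deficient, against 8.62 in wild-type Treg cells. Klrd1 was at least 13.1-fold higher, Klrk1 higher by a log2 bound of 3.32, Nkg7 2.14-fold higher (0.70 on the spike-in scale and 0.88 without scaling, both under 2-fold), and Ncr1 was not above background. Of these 9 markers, 7 lay above 0 and 2 below, namely Eomes (-0.38) and Gzma (-0.16). Prf1 lay at 0.046, or -0.35 on the spike-in scale. Endothelial markers, which bear on Acvrl1, had Cdh5 at least 8.10-fold higher, Pecam1 at 0.24 (-0.16 on the spike-in scale) and a summed level of 12.7 in the library labelled Nr4a-deficient, against 10.1 in wild-type Treg cells. Kdr gave 0.32 at its brightest probe (-0.069 on the spike-in scale), while its other probe had 467 in the library labelled Nr4a-deficient, against a signal not well above background (17.0) in wild-type Treg cells, and the mean over both gave 2.66. Esam was not above background. All 7 macrophage markers lay below 0 and 5 were at least 2-fold lower (median -1.45), with a summed level of 28.7 in the library labelled Nr4a-deficient, against 66.3 in wild-type Treg cells, and Vcam1 3.35-fold, C1qc 3.03-fold and C1qa 2.92-fold lower. Of 3 erythroid and platelet markers detected, 2 were at least 2-fold lower, with a summed level of 5.57 in the library labelled Nr4a-deficient, against 19.4 in wild-type Treg cells. Hba-a1 was 3.52-fold and Alas2 3.09-fold lower, while Klf1, Pf4, Ppbp, Itga2b and Gp9 were not above background. Of 5 thymocyte markers detected, 2 lay above 0 and 3 below (median -0.71, or -1.11 on the spike-in scale). Ccr9, which also stands among the plasmacytoid dendritic cell markers, was 2.35-fold higher (0.84 on the spike-in scale), and Rag1 was at least 2-fold lower. On the spike-in scale, 0 were at least 2-fold higher and 3 lower, with Dntt at -1.20 and Cd1d1 at -1.11. Their summed level was 7.21 in the library labelled Nr4a-deficient, against 8.28 in wild-type Treg cells, and Rag2 and Ptcra were not above background. The Treg identity genes had a median of 0.020, the value of the dim Foxp3, with 4 genes above 0 and 3 below. Their summed level was 132 in the library labelled Nr4a-deficient, against 153 in wild-type Treg cells, and only Il2ra was at least 2-fold lower. Tnfrsf18 lay at -0.86, and at -1.26 on the spike-in scale, where 2 of these genes were at least 2-fold lower. The part of these cells in the values of Id2, Id3 and Ascl2 was not tested.

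**Figure D3:**
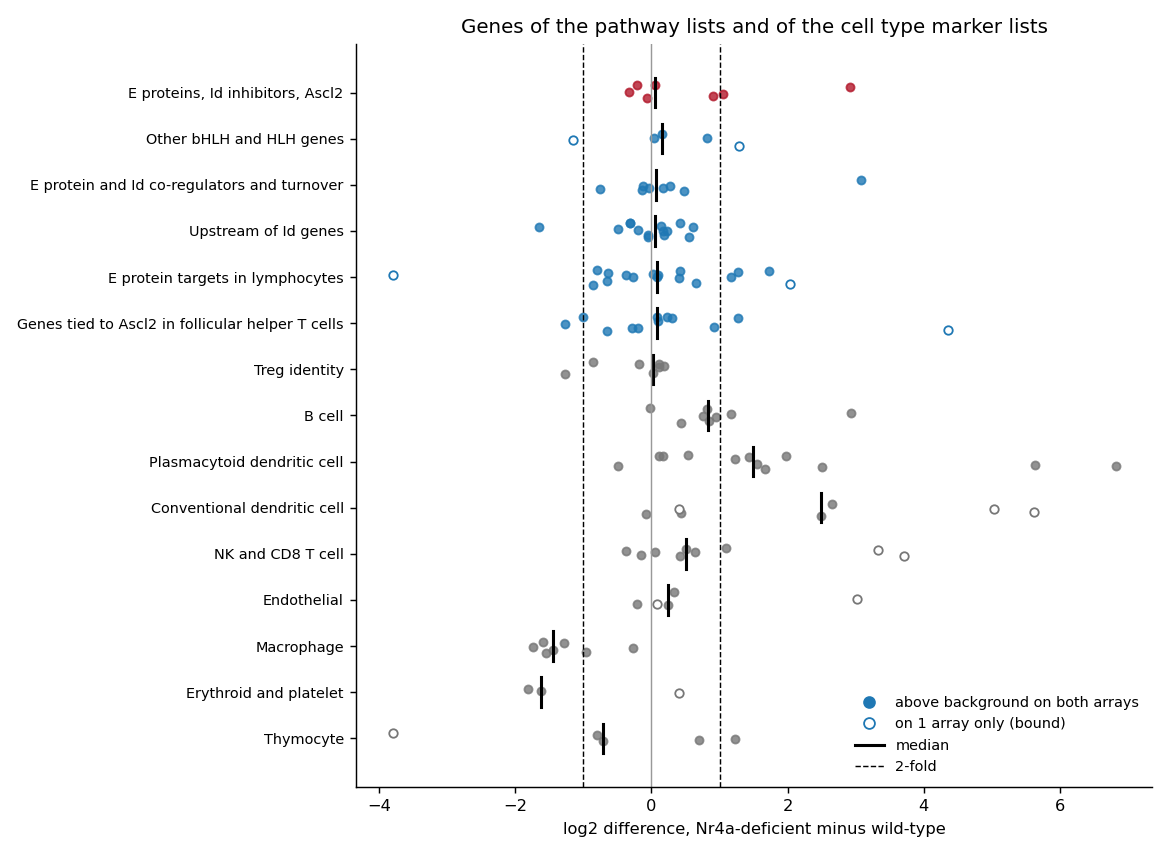
Log2 differences, labelled Nr4a-deficient minus wild-type, for detected genes by list, with filled points for genes above background on both arrays, open points for bounds of genes above background on 1 array, a bar at the median and dashed lines at 2-fold. The pathway lists have medians between 0.049 and 0.15, all of which turn negative on the spike-in scale, while the dendritic cell and B cell markers lie mostly above 0 and the macrophage markers below.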

How the data were processed

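Total RNA of 2 Treg cell samples, 1 labelled Nr4a-deficient and 1 wild-type, was measured on 1 single-colour Agilent array each, from 600 ng of RNA per the labels' protocols. The deposited scanner files hold intensity per spot on a linear scale, made with Agilent Feature Extraction 10.7.3.1 per the file headers, which subtracted background and recorded no normalization between arrays. The authors' deposited table holds the same intensity values with repeated spots averaged, within 1% of the scanner values for 99.7% of probes on each array, and was used as an alternative.

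Outlier-flagged spots were left out (173 on the array labelled Nr4a-deficient, 209 on the wild-type array), and no spot was saturated. Processed signals were log2-transformed, the array's 75th percentile over gene probes was subtracted and repeated spots were averaged. A probe was above background when the scanner made that call in over 50% of its spots. Where a gene had several probes, the brightest of those above background on at least 1 array stood for it. A gene above background on 1 array has a bound, with the dim array set at the higher of the probe's own value and the lowest value above background there. Calls are by size, at least 2-fold, and there is no p-value, since each group had 1 array, a number that limits the precision. The spot SD comes from probes printed in at least 8 spots and within 1 log2 unit of brightness.

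Gene names were updated through RefSeq (GRCm38.p6). Accessions named 27184 probes, symbols 3566 and synonyms 562, and the other 8036 kept the array's name. Coordinates of probes come from the array design (mm9), and no mm9 annotation was used here, so exon and untranslated region are not given. The members, lists and the rule for named genes were chosen with earlier results of these data known. That rule took all 7 members, the 3 Nr4a genes, every listed gene past 2-fold up to 4 in each direction, lists of up to 12 genes in full, and the undetected and most different cell type markers. Some genes that the rule names are counted in their lists but not reported here by name. Python 3.11.15, R 4.3.3 and limma 3.58.1 (quantile, loess and normexp alternatives) were used.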

Additional observations from a re-analysis of the deposited data

How the results depend on the processing

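The differences have no replicate behind them, so the settings below show what the processing moves and not how the libraries of other animals would vary. No paired analysis was possible because each genotype had 1 array. The median of the 7 genes was 0.046, and it was -0.051 with the array median as the scale, -0.17 without scaling, -0.35 with the spike-ins and 0.24 with probes averaged per gene. The same 3 scales left 1 of the 7 genes at least 2-fold higher (Tcf4) in place of 2, and at a 1.5-fold threshold 3 were higher. Over all genes, 871 were higher and 915 lower (48.8% of the called genes higher). On the spike-in scale, which moved the median of all genes by -0.39, 545 were higher and 1561 lower (25.9% higher), and without scaling, which moved it by -0.22, 677 were higher and 1195 lower (36.2%). They were 432 and 499 for genes above background on each array, 2059 and 1785 without a filter on dim probes, 1429 and 1064 with measured values in place of bounds, and 1617 and 1610 at a 1.5-fold threshold. Of the pathway lists, 7 genes were higher and 5 lower. These were 4 and 10 with the spike-ins, 4 and 3 for genes above background on each array, and 11 and 10 at a 1.5-fold threshold, and 3 were lower with normexp. The cause of these shifts between settings was not tested, except that fewer genes are counted when both arrays must be above background. Signal over background limits Id1, the dimmer probes of Tcf3 and Tcf4, and every gene given by a bound.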
